A study of Mus musculus with 6 samples.

Results

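Histones package DNA into nucleosomes, and their genes fall into classes that make their mRNA in different ways. Core histones H2A, H2B, H3 and H4 form the nucleosome, and the linker histone H1 binds where DNA enters and leaves it. Most histone genes lie in the Hist clusters, are transcribed in S phase, and give mRNAs that end at a conserved stem-loop with no poly(A) tail. Variant genes such as H3f3a, H3f3b, H2afz and H2afy are transcribed outside S phase too and give ordinary polyadenylated mRNA, and some Hist cluster genes can also give a longer polyadenylated form in cells that have stopped dividing. Neutrophils in blood are non-dividing cells, and their chromatin is the scaffold of the extracellular traps they release.

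The histone genes were taken by symbol from the protein-coding mouse genes of GENCODE M21: every symbol that begins with Hist1h, Hist2h, Hist3h, Hist4h or H2af, together with H1f0, H1fx, H3f3a and H3f3b. This gave 80 of 35853 genes, with 8 linker genes, 61 core genes of the Hist clusters and 11 variant core genes. No measured value entered this choice of symbols, but the family was picked with earlier results of these data known, so all counts over its members are given as description. The libraries came from blood neutrophils of wild-type BALB/c mice that carried orthotopic 4T1 tumours, a transplanted mammary carcinoma line, for 4 weeks. Ly6G+ cells were sorted into 3 Ly6C-high and 3 Ly6C-low libraries, and all 6 came from tumour-bearing animals, so no library shows these cells without a tumour. Whether a group's libraries represent different animals is not stated in the labels, so a p-value here speaks of spread from library to library, which could be technical. RNA was captured on oligo-dT beads, which select polyadenylated RNA. Whether every read came from a tailed RNA was not tested.

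The sort itself could be read in the transcripts that name it. Ly6c1 had 47.9 ± 7.73 CPM (counts scaled to library size) in Ly6C-high libraries and 5.72 ± 1.83 CPM in Ly6C-low libraries (SD, n = 3 each). Ly6c2 had 139 ± 22.9 CPM in Ly6C-high libraries and 18.6 ± 5.15 CPM in Ly6C-low libraries, and both genes rose (log2 fold changes of 3.07 and 2.90, adjusted p = 0.00273 and 0.00382, edgeR quasi-likelihood test). Each library held 17192372 to 20973623 estimated counts, and Ly6C-low replicate 3 stood apart on the first principal component, at 38.0 against -19.7 to 3.91 for the other libraries. In such bulk samples fewer cells of a type and less RNA per cell cannot be told apart.

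The stem-loops of 7 Hist cluster or H2A genes show where the non-polyadenylated form of each mRNA would end, and they are printed because the position of this element separates the transcript forms described further on. Bases in capitals are the stem-loop match, with up to 5 transcript bases on each side, all written 5′ to 3′ on the transcript strand. The sequences are from GENCODE M21 transcripts, at GRCm38 coordinates.
Hist1h1c, chr13:23739507-23739532, plus strand: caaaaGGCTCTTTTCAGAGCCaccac
Hist1h4i, chr13:22040961-22040986, minus strand: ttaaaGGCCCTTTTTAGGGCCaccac
Hist1h2ac, chr13:23683472-23683497, minus strand: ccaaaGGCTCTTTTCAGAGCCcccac
Hist1h2be, chr13:23585526-23585551, minus strand: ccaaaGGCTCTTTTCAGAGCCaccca
Hist2h2aa1, chr3:96246027-96246052, plus strand: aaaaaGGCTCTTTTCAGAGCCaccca
Hist4h4, chr6:136803993-136804018, minus strand: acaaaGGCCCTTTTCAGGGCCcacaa
H2afx, chr9:44335235-44335260, plus strand: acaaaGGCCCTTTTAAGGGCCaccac

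The pattern searched ran the arm GGNNNT, the loop TNTN and the arm ANNNCC together, on the transcript strand. It was found in an annotated transcript of 46 of the 67 Hist cluster genes and of H2afx, the variant known for its phosphorylation at DNA breaks. Most of the other Hist cluster genes, such as Hist1h2bl and Hist2h2bb, are annotated only to the stop codon or just past it. A stem-loop could not be found in those transcripts. For this share only protein-coding transcripts with at least 75 bases after the stop codon were counted. Within those 75 bases the pattern was present in 66.7% of 63 histone transcripts and in 0.138% of 41342 others. The commonest form, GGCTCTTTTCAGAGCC, was shared by 26 genes, among them Hist1h1c and Hist1h2ac. The form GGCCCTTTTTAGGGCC belonged to Hist1h4i and Hist2h4 alone among these genes.

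The captured histone RNA was unevenly spread over the family. Variant genes held 86.1% of the summed histone TPM (a level scaled to transcript length and library), core genes of the Hist clusters held 10.7% and linker genes 3.23%, as means over the 6 libraries. Only 15 of the 80 genes averaged at least 10 TPM, 30 averaged at least 1 TPM, and 10 were listed at 0 in all 6 libraries. Those 10 were Hist1h2aa, Hist1h2ba, Hist1h2ai, Hist1h2an, Hist1h2bm, Hist1h4m, Hist2h2ab and the testis-associated H2afb1, H2afb2 and H2afb3. A library with 0 counts allows a level of up to 0.147 to 0.160 CPM, the equivalent of 3 counts (counting error only). This bound leaves out reads that were assigned to a near-identical gene. Sequence found in no other gene ran from 7.99% (Hist1h2ai) to 88.3% (Hist1h2aa) over these 10 genes. For Hist1h4m and Hist1h2an it was 8.33% and 11%. Where little of the sequence is unique, a listed 0 does not bound the level.

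H3f3a, which encodes the replacement histone H3.3, was the highest histone gene. Its level was 2296, 2163 and 2242 TPM in Ly6C-high libraries and 2262, 2293 and 2334 TPM in Ly6C-low libraries. H3f3b, which encodes the same H3.3 protein from another locus, stood at 294, 301 and 311 TPM in Ly6C-high libraries and at 316, 334 and 412 TPM in Ly6C-low libraries. H3f3a thus exceeded H3f3b by 7.19 to 7.82 times in Ly6C-high libraries and by 5.66 to 7.15 times in Ly6C-low libraries. These gene levels include transcripts not classed as protein-coding, which averaged 126 and 7.74 TPM for H3f3b and 9.4 TPM for H3f3a. H3f3a alone made up 68.3% to 69.8% of histone TPM in Ly6C-high libraries and 63.7% to 65.8% in Ly6C-low libraries, so these shares did not overlap.

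Below the H3.3 genes, Hist2h2aa1, H2afz, H2afy and Hist1h1c averaged 164, 146, 116 and 106 TPM. Hist2h2aa1 encodes a canonical H2A, H2afz the variant H2A.Z found at promoters, H2afy macroH2A1, and Hist1h1c the linker histone H1.2. The ranges over libraries of Hist2h2aa1 and H2afz overlapped, so their order was not resolved. Hist1h4i and Hist1h2bc followed at 46.2 and 44.3 TPM, then H2afj at 29.5 TPM and H2afv, an H2A.Z relative, at 20.3 TPM. Hist2h2aa2, Hist1h2be, Hist1h2bl and Hist1h2bk lay between 10.9 and 15.2 TPM.

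**Figure D1:**
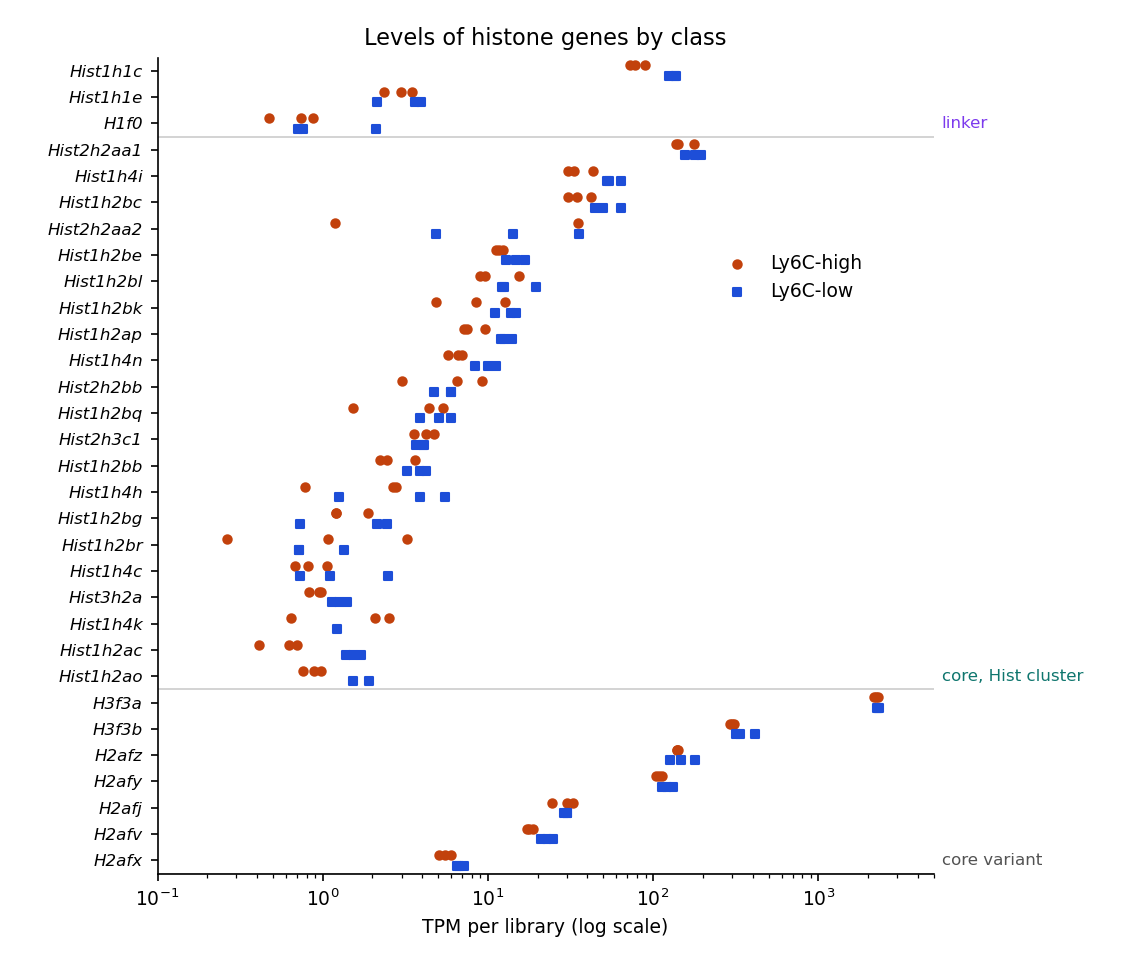
TPM per library (log scale) of the 30 histone genes with a mean of at least 1 TPM and of H1f0, 3 Ly6C-high libraries (circles, upper row of each gene) and 3 Ly6C-low libraries (squares, lower row), grouped by class. H3f3a lies near 2265 TPM and Hist1h1c is the one linker gene above 10 TPM; 4 points below 0.1 TPM are not drawn.

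In the comparison of Ly6C-high with Ly6C-low neutrophils, the linker gene Hist1h1c and several core genes of the Hist clusters had lower values in Ly6C-high libraries, while the groups overlapped in CPM for H3f3a, H3f3b, H2afz and H2afy. After adjustment over all genes none of the 34 histone genes tested passed the threshold of 0.05 in the edgeR test, where 0.0351% of all 11406 genes tested did, 0.0175% higher and 0.0175% lower. At an unadjusted p under 0.05, 5 histone genes were lower and 0 were higher, which is 14.7% and 0%, beside 7.34% and 6.92% of all genes tested. DESeq2 called 1 histone gene, Hist1h1c, as lower, beside 0.964% of all genes tested called and 0.342% called lower. It gave no adjusted p for Hist1h2ac, Hist1h2ap, Hist1h4n, Hist3h2a and other tested members. Genes without one count as not called in every DESeq2 count given here. Limma voom called 0, beside 0.0263% of all genes tested.

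The 34 tested genes are those with enough counts for the filter, 4 linker, 23 core and 7 variant genes, and the other 46 are given as levels only. Fold changes were below 0 for 26 of the 34, beside 50.8% of all genes tested, with a median log2 fold change of -0.22 for the histone genes and -0.00 for all genes. By class the medians were -0.34 for linker genes, -0.30 for core genes and -0.00 for variant genes. The 3 Ly6C-high libraries lay entirely below the 3 Ly6C-low libraries for 7 of the 34 (20.6%; 10.9% of all genes tested) and entirely above them for 0 (10.3% of all genes tested). Those 7 were Hist1h1c, Hist1h4i, Hist1h2ac and H2afv, together with Hist1h2ap, Hist1h4n and Hist3h2a, which are named after their values were seen. Near-identical coding sequences let some of these genes share reads, so the 7 are not independent of one another.

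**Figure D2:**
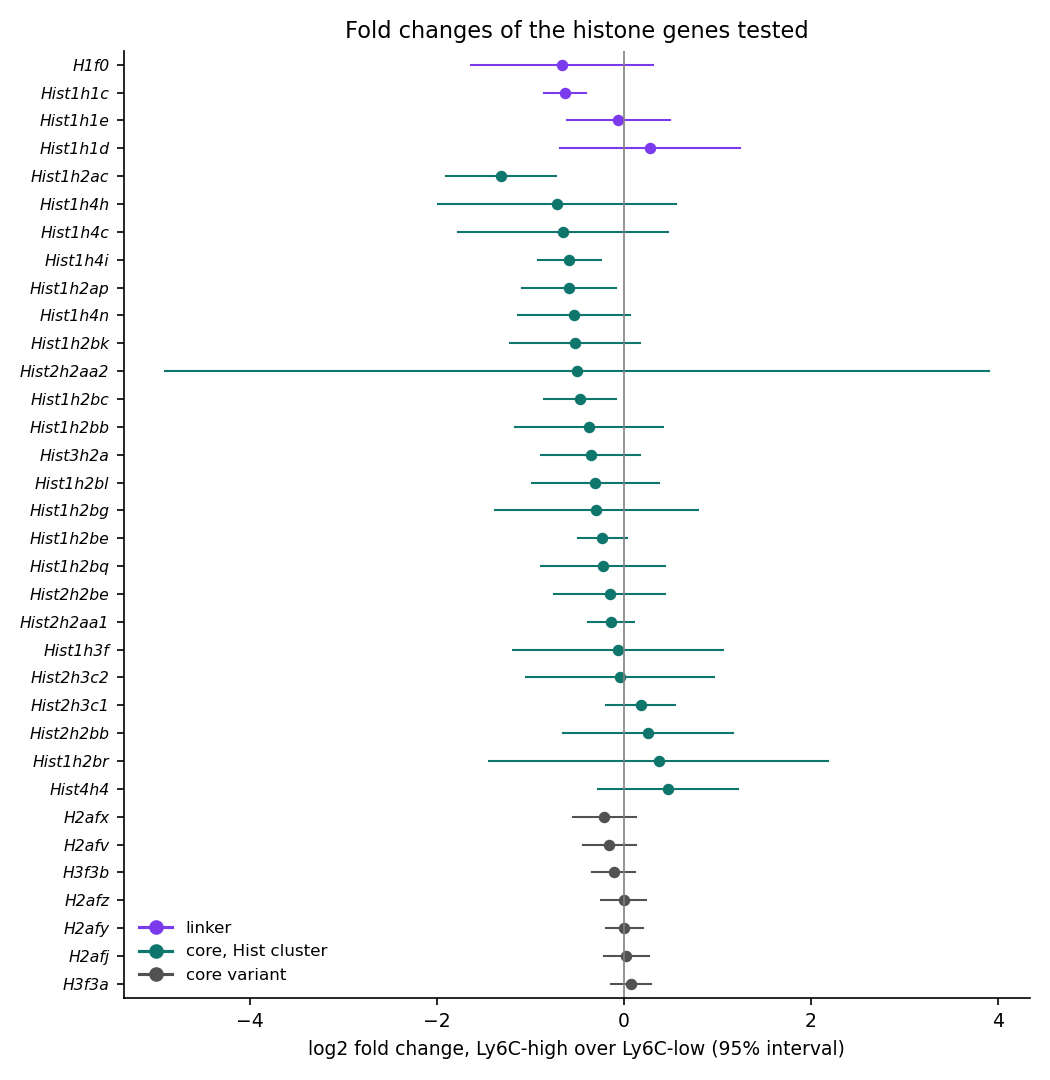
Fitted log2 fold change, Ly6C-high over Ly6C-low, with its 95% interval for the 34 histone genes tested, coloured by class and sorted within class. Hist1h1c at -0.63 and Hist1h2ac at -1.32 lie below 0 with their intervals, and the intervals of all 7 variant genes span 0.

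The linker class was almost entirely Hist1h1c, which made up 94.7% to 95.8% of linker TPM in Ly6C-high libraries and 96.5% to 96.9% in Ly6C-low libraries. Hist1h1c had 117, 100.2 and 92.5 CPM in Ly6C-high libraries and 168, 152 and 159 CPM in Ly6C-low libraries. Every Ly6C-high library lay below every Ly6C-low library. The log2 fold change was -0.63 (SE 0.10, 95% interval -0.85 to -0.41), 1.55-fold lower in Ly6C-high, with the smallest p of the family (5.7e-05, adjusted p = 0.0923 in the edgeR test). DESeq2 gave an adjusted p of 0.000146 for the same gene, and edgeR gave 0.0235 once Ly6C-low replicate 3, the library that stood apart, was left out. Leaving out each of the other libraries gave adjusted p-values of 0.0993 to 0.501 (edgeR), and voom gave 0.211. Words found in no other gene made up 88.6% of its sequence. On the TPM scale the levels were 89.2, 78.1 and 72.5 in Ly6C-high libraries and 137, 125 and 135 in Ly6C-low libraries.

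The other linker genes were scarce, and those beyond H1f0 and H1fx are named here to complete the class. Hist1h1e averaged 2.92 ± 0.560 TPM in Ly6C-high libraries and 3.23 ± 0.980 TPM in Ly6C-low libraries, with a log2 fold change of -0.06 (adjusted p = 0.941, edgeR). H1f0, the linker histone of resting and differentiated cells, had 0.735, 0.876 and 0.474 TPM in Ly6C-high libraries and 0.708, 0.755 and 2.10 TPM in Ly6C-low libraries. Its high value in Ly6C-low replicate 3 carried its log2 fold change of -0.66 (adjusted p = 0.535, edgeR), which was 0.00 without that library. H1fx had estimated counts in 1 library of 6. Hist1h1d had 0.713 ± 0.257 CPM in Ly6C-high libraries and 0.582 ± 0.187 CPM in Ly6C-low libraries. Its log2 fold change was 0.28 (adjusted p = 0.815, edgeR), while 3 of the 4 tested linker genes were below 0. Hist1h1a, Hist1h1b and Hist1h1t were not tested and averaged at most 0.035 TPM.

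Among H4 genes, Hist1h4i led. It had 20.9, 15.7 and 14.2 CPM in Ly6C-high libraries and 29.1, 24.2 and 22.9 CPM in Ly6C-low libraries, with no overlap. Its log2 fold change was -0.59 (SE 0.15, interval -0.92 to -0.25, adjusted p = 0.192, edgeR). Hist1h4i could be told apart from other genes by 64.4% of its 31-base words, and the remaining words were shared mainly with other H4 genes. Hist4h4, a lone H4 gene on another chromosome, had the smallest p among genes with higher values in Ly6C-high, at 1.53, 0.907 and 1.86 CPM in Ly6C-high libraries and 0.998, 1.20 and 0.902 CPM in Ly6C-low libraries. These groups overlapped, and the log2 fold change of 0.47 had an interval of -0.28 to 1.22 (adjusted p = 0.564, edgeR).

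Hist1h2ac and Hist1h2bc, an H2A and an H2B gene, lie head to head on chromosome 13 and are read away from each other. Their annotated starts leave 250 bases between them. Hist1h2ac spans chr13:23681467-23683948 on the minus strand and Hist1h2bc spans chr13:23684199-23692908 on the plus strand (GRCm38). Hist1h2ac had 1.53, 1.39 and 0.881 CPM in Ly6C-high libraries and 3.54, 2.83 and 3.08 CPM in Ly6C-low libraries, without overlap. With a log2 fold change of -1.32 (SE 0.27, interval -1.91 to -0.73, adjusted p = 0.142, edgeR) it was 2.49-fold lower in Ly6C-high, at a level of about 1 TPM.

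Its neighbour Hist1h2bc had 38.2, 27.1 and 30.5 CPM in Ly6C-high libraries and 54.9, 41.6 and 36.5 CPM in Ly6C-low libraries. Ly6C-high replicate 1 overlapped the lowest Ly6C-low library. The log2 fold change was -0.47 (SE 0.17, interval -0.86 to -0.09, adjusted p = 0.281, edgeR). By level the pair was uneven, at 35.7 ± 5.94 TPM for Hist1h2bc and 0.581 ± 0.149 TPM for Hist1h2ac in Ly6C-high libraries, and at 52.8 ± 10.1 TPM and 1.54 ± 0.158 TPM in Ly6C-low libraries. Hist1h2ac was unique in 86.4% of its words and Hist1h2bc in 66.5%.

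The window before Hist1h2ac, which covers most of the region between this pair and the first 11 bases of Hist1h2bc, and the promoter of Hist1h1c are printed because these are the genes with the lowest p among linker, H2A and H2B genes. Both are the 250 bases before the RefSeq start in GRCm38.p6, 5′ to 3′ on the strand of the named gene, with motif matches in capitals.
Hist1h2ac promoter, chr13:23683960-23684209, minus strand: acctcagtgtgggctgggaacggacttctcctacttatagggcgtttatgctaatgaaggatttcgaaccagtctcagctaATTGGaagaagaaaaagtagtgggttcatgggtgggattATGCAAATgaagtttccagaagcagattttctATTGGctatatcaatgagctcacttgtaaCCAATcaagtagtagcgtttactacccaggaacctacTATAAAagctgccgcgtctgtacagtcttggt
Hist1h1c promoter, chr13:23738557-23738806, plus strand: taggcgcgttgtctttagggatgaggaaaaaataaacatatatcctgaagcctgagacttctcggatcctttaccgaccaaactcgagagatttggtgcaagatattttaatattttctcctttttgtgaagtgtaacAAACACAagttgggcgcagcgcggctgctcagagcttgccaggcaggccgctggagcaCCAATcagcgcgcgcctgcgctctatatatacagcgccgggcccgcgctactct

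Both strands were searched for CCAAT, the letters TATAAA, the octamer ATTTGCAT that is known from H2B promoters and the box AAACACA that is known from H1 promoters. The motifs do not overlap in the letters they match here. The Hist1h2ac window held CCAAT 3 times, counting ATTGG as its reverse, TATAAA once and the octamer once, written ATGCAAAT on this strand. The Hist1h1c window held AAACACA once and CCAAT once. A RefSeq promoter was matched to 72 of the 80 genes. CCAAT was in 79.2% of these windows, beside 34.5% of all 27025 RefSeq promoters, and the octamer was in 19.4% beside 1.61%. TATAAA was in 41.7% beside 13%, and AAACACA in 13.9% beside 6.22%, with 5 of the 6 H1 promoters of the Hist clusters among its holders.

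**Figure D3:**
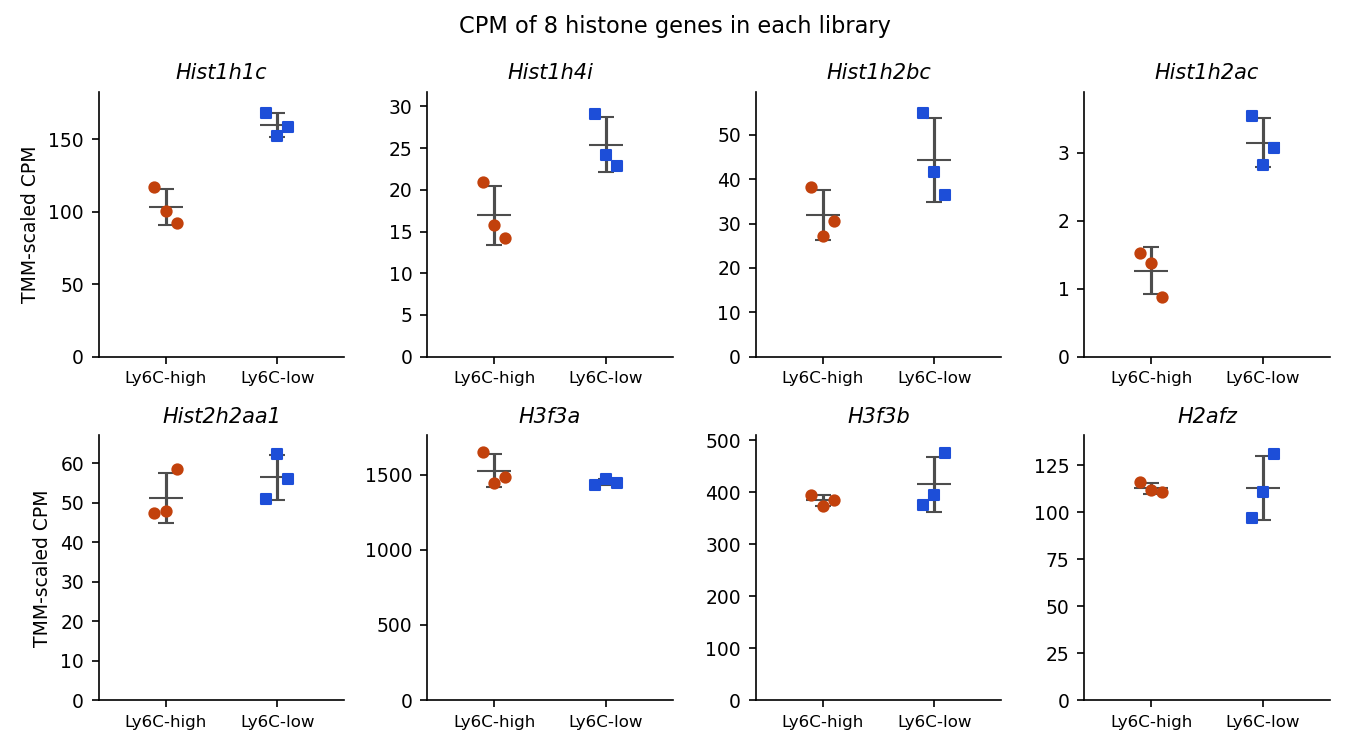
TMM-scaled CPM of 8 histone genes in each library, Ly6C-high (circles) left of Ly6C-low (squares), with mean and SD (n = 3 each) and axes from 0. Hist1h1c, Hist1h4i and Hist1h2ac show no overlap between groups, whereas H3f3a, H3f3b, H2afz and Hist2h2aa1 overlap.

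Hist2h2aa1 and Hist2h2aa2 encode the same H2A and could not be separated, since every 31-base word of Hist2h2aa2 also occurred in Hist2h2aa1. Hist2h2aa2 alone ran from 0.000217 to 35.1 TPM among Ly6C-high libraries and from 4.85 to 35.8 TPM among Ly6C-low libraries. Their sum was steadier, at 47.4, 57.8 and 58.9 CPM in Ly6C-high libraries and 54.9, 63.7 and 65.5 CPM in Ly6C-low libraries, with overlap. The merged pair had a log2 fold change of -0.16 (SE 0.11, adjusted p = 0.534, edgeR).

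The H2B genes Hist1h2be, Hist1h2bl and Hist1h2bk had log2 fold changes of -0.23, -0.30 and -0.53, with overlapping groups and adjusted p-values of 0.405, 0.691 and 0.485 (edgeR). Of these, Hist1h2be was unique in 81.8% of its words, Hist1h2bk in 24.7% and Hist1h2bl in 11.4%, so the level of the last 2 depended on how reads were divided. Hist2h3c1, an H3 gene, had 7.40, 6.45 and 5.48 CPM in Ly6C-high libraries and 5.94, 5.92 and 5.20 CPM in Ly6C-low libraries, with a log2 fold change of 0.18 (adjusted p = 0.664, edgeR). Of the 9 Hist1h3 genes Hist1h3f alone passed the filter, with a log2 fold change of -0.06 (adjusted p = 0.969, edgeR). Together the 9 summed to 0.858 ± 0.193 CPM in Ly6C-high libraries and 1.50 ± 0.150 CPM in Ly6C-low libraries. Tested as 1 merged feature, as described next, they had a log2 fold change of -0.80 (adjusted p = 0.297, edgeR).

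Genes were linked where at least 50% of the 31-base words of either gene occurred in the other, and each chain of linked genes was merged and tested as 1 feature, a step added after seeing the data. The 12 merged Hist1h2a genes had 4.39, 4.48 and 3.82 CPM in Ly6C-high libraries and 7.89, 6.50 and 6.68 CPM in Ly6C-low libraries, with a log2 fold change of -0.73 (adjusted p = 0.170, edgeR). The 7 merged Hist1h4 genes had a log2 fold change of -0.57 and the 14 merged Hist1h2b genes -0.35 (adjusted p = 0.190 and 0.256, edgeR). Of 22 merged or single features tested, 0 passed the threshold, and 5 were lower and 0 higher at an unadjusted p under 0.05, beside 7.34% and 6.92% of all genes tested.

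Among variant genes 0 passed the threshold in the edgeR test. H3f3a had 1649, 1443 and 1485 CPM in Ly6C-high libraries and 1431, 1474 and 1445 CPM in Ly6C-low libraries, and the groups overlapped. Its log2 fold change was 0.07 (interval -0.14 to 0.29, adjusted p = 0.776, edgeR), and it was -0.03 when scaled by library size alone. H3f3b had 395, 374 and 386 CPM in Ly6C-high libraries and 376, 396 and 475 CPM in Ly6C-low libraries, where replicate 3 stood above the rest. Its log2 fold change of -0.11 had an interval of -0.34 to 0.12 (adjusted p = 0.665, edgeR) and was -0.00 without that library.

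H2afz had 116, 112 and 111 CPM in Ly6C-high libraries and 97.2, 111 and 131 CPM in Ly6C-low libraries. The Ly6C-high libraries lay inside the range of the Ly6C-low libraries, with an interval of the log2 fold change of -0.24 to 0.24. H2afy averaged 149 ± 9.59 CPM in Ly6C-high libraries and 149 ± 8.84 CPM in Ly6C-low libraries, with an interval of -0.20 to 0.20, and H2afj, an H2A variant known from senescent cells, had an interval of -0.21 to 0.27. H2afv had 11.2, 10.5 and 9.30 CPM in Ly6C-high libraries and 11.7, 11.2 and 11.5 CPM in Ly6C-low libraries, a narrow separation with a log2 fold change of -0.15 (interval -0.43 to 0.12, adjusted p = 0.617, edgeR). A p that misses the threshold does not show equal levels, and these intervals bound the differences that the 6 libraries allow. For H2afz, 33.5% of its words also occurred elsewhere, mostly in Tmcc1 and in pseudogene copies, and for H3f3a 18.8%.

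Summed over all members, detected or not, the linker class had 124, 107 and 99.5 CPM in Ly6C-high libraries and 177, 159 and 166 CPM in Ly6C-low libraries, a ratio of the means of 0.658. The core genes of the Hist clusters summed to 168, 155 and 162 CPM in Ly6C-high libraries and 211, 202 and 186 CPM in Ly6C-low libraries, a ratio of 0.809. Neither class overlapped between groups. Variant genes summed to 2354, 2126 and 2162 CPM in Ly6C-high libraries and 2100, 2160 and 2251 CPM in Ly6C-low libraries, with overlap. The log2 ratio of the variant sum was 0.03, but -0.08 with library size alone and -0.07 on the TPM scale. Its sign thus depended on the scaling, and library size alone also lowered the median of all genes. On the TPM scale the variant sums did not overlap, at 2772 to 2888 TPM in Ly6C-high libraries and 2889 to 3117 TPM in Ly6C-low libraries. Without H3f3a they were 592 to 609 TPM in Ly6C-high libraries and 627 to 784 TPM in Ly6C-low libraries.

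Within the core class the ratio of summed CPM, Ly6C-high over Ly6C-low, was 0.699 for H4 genes, 0.790 for H2B, 0.859 for H2A and 1.02 for H3. The sum of H2A genes without the Hist2h2aa pair was 5.91 ± 0.329 CPM in Ly6C-high libraries and 9.24 ± 1.09 CPM in Ly6C-low libraries, a ratio of 0.640 with no overlap. H4 sums also showed no overlap, at 21.3 ± 3.76 CPM in Ly6C-high libraries and 30.5 ± 3.11 CPM in Ly6C-low libraries. H2B sums overlapped in CPM, as did H3 sums, which were small at 7.88 ± 0.964 CPM in Ly6C-high libraries and 7.75 ± 0.708 CPM in Ly6C-low libraries. On the TPM scale neither overlapped. H2B genes summed to 75.3 to 94.4 TPM in Ly6C-high libraries and 99.4 to 134 TPM in Ly6C-low libraries, and the H3 ratio turned to 0.883. Most of the H3 sum was Hist2h3c1, at 6.45 ± 0.960 CPM in Ly6C-high libraries and 5.69 ± 0.423 CPM in Ly6C-low libraries.

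**Figure D4:**
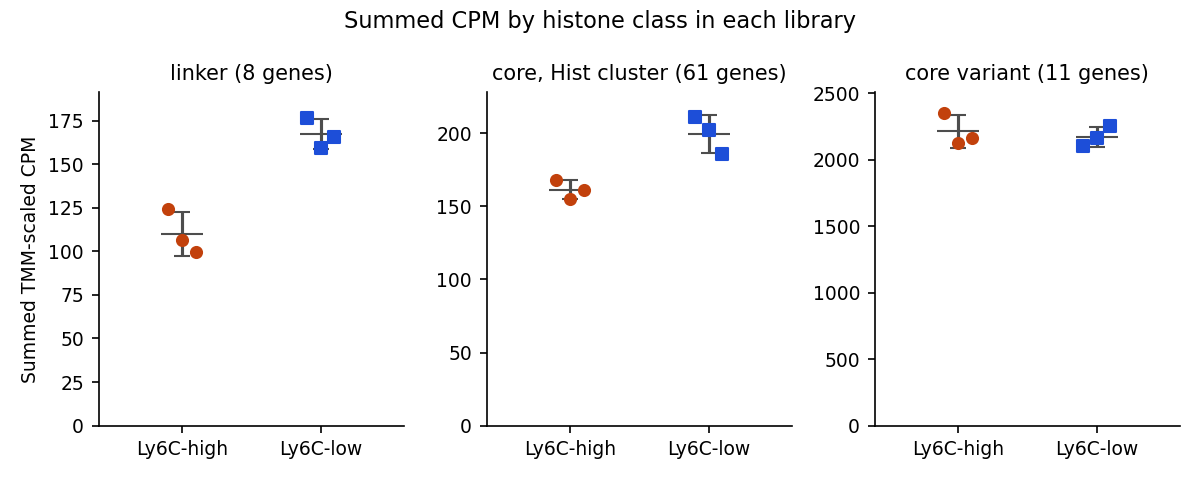
Summed TMM-scaled CPM of the 8 linker, 61 core and 11 variant histone genes in each library, Ly6C-high (circles) left of Ly6C-low (squares), with mean and SD (n = 3 each). Linker and core sums are lower in every Ly6C-high library than in any Ly6C-low library, and variant sums overlap.

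The transcript forms bear on what these reads were assigned to. Of the counts on Hist cluster genes, 57.0% to 63.1% in Ly6C-high libraries and 63.7% to 64.5% in Ly6C-low libraries lay on annotated transcripts that ran more than 50 bases past the stem-loop. In every library Hist1h1c alone held most of these counts, with 1880 to 2208 in Ly6C-high libraries and 2901 to 3373 in Ly6C-low libraries. This share thus mainly followed that gene. A further 19.2% to 25.5% in Ly6C-high libraries and 17.0% to 21.6% in Ly6C-low libraries lay on transcripts that ended at the stem-loop. The Hist2h2aa pair held 84.8% to 90.4% of the counts on such transcripts in Ly6C-high libraries and 83.3% to 87.2% in Ly6C-low libraries. Without that pair, transcripts that end at the stem-loop held 3.04% to 3.72% of counts in Ly6C-high libraries and 3.32% to 3.62% in Ly6C-low libraries. These shares follow the ends that the annotation gives each transcript, and reads past an unannotated end could not be counted.

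The stem-loops printed earlier show the difference between genes. In Hist1h1c it began 24 bases after the stop codon, and the annotated transcript ran on for another 840 bases to an end with an AATAAA or ATTAAA within its last 50 bases. In Hist1h4i the transcript ran on for 330 bases to such an end, in Hist1h2be for 1861 bases and in Hist4h4 for 2445 bases. The Hist1h2ac transcript ran on for 2010 bases but held neither signal in its last 50 bases. In Hist2h2aa1 only 35 bases followed, with no such signal, and the gene averaged 164 TPM.

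Hist1h2bc was annotated differently, as a 2-exon transcript with 742 bases after the stop codon and no stem-loop match. Among protein-coding transcripts with at least 50 bases after the stop codon, the last 50 bases were searched for either signal. It was found in 40.8% of 71 histone transcripts and 66.7% of 42602 others. Most H3f3a counts lay on 3 of its 6 protein-coding transcripts, which held 99.1% to 99.5% in Ly6C-high libraries and 99.1% to 99.3% in Ly6C-low libraries. The 888-base form took 61.5% to 64.3% in Ly6C-high libraries and 60.6% to 62.8% in Ly6C-low libraries. The 2841-base H3f3a form, with a long 3′ end, took 17.5% to 21.2% in Ly6C-high libraries and 16.9% to 18.9% in Ly6C-low libraries, and these ranges overlapped.

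**Figure D5:**
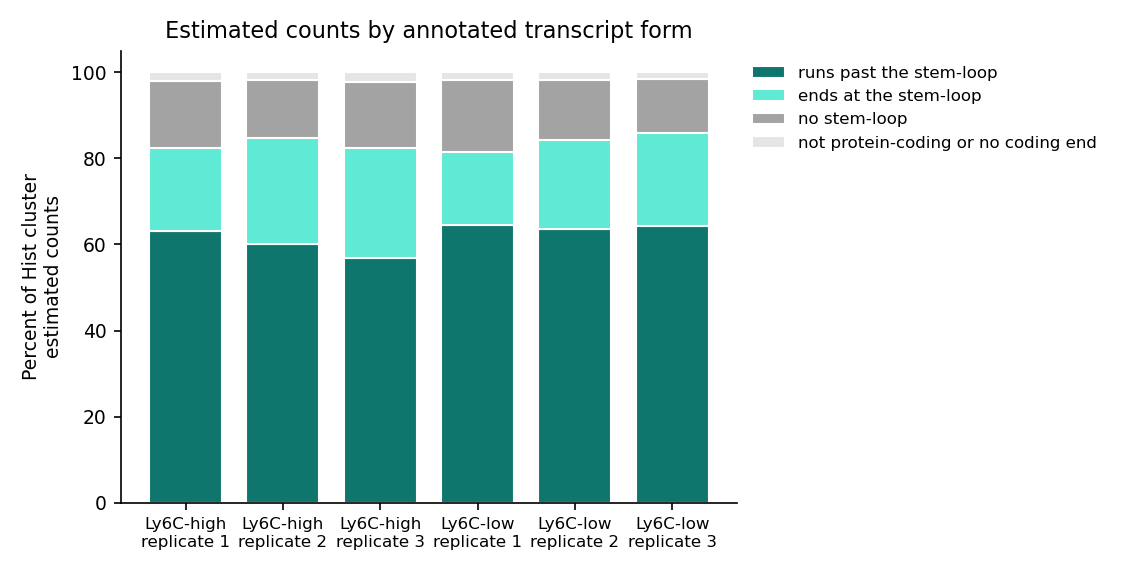
Percent of the estimated counts on Hist cluster genes that was assigned to each kind of annotated transcript, by library, Ly6C-high replicates left of Ly6C-low replicates. Transcripts that run past the stem-loop hold 57.0% to 64.5% in every library, most of it on Hist1h1c. Those with no stem-loop include transcripts annotated only to the stop codon.

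Genes that handle histone mRNA and histone protein were described through 4 lists, chosen from textbook knowledge with earlier results of these data known. Of their 76 tested genes 0 passed the edgeR threshold, 3 passed that of DESeq2 (0.964% of all genes tested) and 0 that of voom. At an unadjusted p under 0.05, 3 of the 76 were higher and 11 lower, beside 6.92% and 7.34% of all genes tested. Among 12 tested genes for histone gene transcription and 3′ end processing, 8 fold changes were below 0, beside 50.8% of all genes tested. The median log2 fold change was -0.08, beside -0.00 for all genes tested. Npat, the coactivator of histone genes, had 5.81 ± 1.27 CPM in Ly6C-high libraries and 8.54 ± 0.00214 CPM in Ly6C-low libraries, with a log2 fold change of -0.56 (adjusted p = 0.222, edgeR). Ncbp1, a cap-binding protein, had a log2 fold change of 0.28, and Lsm11, a part of the U7 particle, -0.66 (adjusted p = 0.228 and 0.413, edgeR).

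Among histone chaperones 19 of 23 fold changes were below 0, beside 50.8% of all genes tested, with a median of -0.21 beside -0.00. At an unadjusted p under 0.05, 7 of the 23 were lower, beside 7.34% of all genes tested, and 0 passed the edgeR threshold. DESeq2 called 2 of them, beside 0.964% of all genes tested. Npm1, nucleophosmin, had 21.4 ± 1.49 CPM in Ly6C-high libraries and 33.0 ± 5.35 CPM in Ly6C-low libraries, with a log2 fold change of -0.63. Nap1l1, an H2A-H2B chaperone, had a log2 fold change of -0.43 and Set, a chaperone and phosphatase inhibitor, of -0.44, with adjusted p-values of 0.142, 0.168 and 0.192 for the 3 genes (edgeR). Summed chaperone CPM was 926 to 981 in Ly6C-high libraries and 1033 to 1145 in Ly6C-low libraries.

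Histone-modifying enzymes had 9 of 19 fold changes below 0, beside 50.8% of all genes tested, and a median of 0.00. At an unadjusted p under 0.05 (edgeR), 2 were higher and 0 lower, beside 6.92% and 7.34% of all genes tested. None passed the edgeR threshold, and DESeq2 called 1, beside 0.964% of all genes tested. Kmt5a, the H4 lysine methyltransferase, had 71.1 ± 7.36 CPM in Ly6C-high libraries and 49.7 ± 8.32 CPM in Ly6C-low libraries, with a log2 fold change of 0.52 (adjusted p = 0.192, edgeR). Padi4, which converts histone arginines to citrulline when traps form, had 482 ± 46.5 CPM in Ly6C-high libraries and 368 ± 82.1 CPM in Ly6C-low libraries, with a log2 fold change of 0.39 (adjusted p = 0.310, edgeR). Kdm5b, a demethylase, had a log2 fold change of 0.11.

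S phase and mitosis genes had 19 of 22 fold changes below 0, beside 50.8% of all genes tested, and a median of -0.29. None of the 22 passed the threshold of edgeR, DESeq2 or voom, and 3 were lower and 0 higher at an unadjusted p under 0.05, beside 7.34% and 6.92% of all genes tested. Their summed level was low, at 88.1 to 100.3 CPM in Ly6C-high libraries and 97.8 to 136 CPM in Ly6C-low libraries, with the highest sum in Ly6C-low replicate 3. Mcm7 and Gins2, of the replication helicase, had log2 fold changes of -0.74 and -0.74, and the kinetochore motor Cenpe -0.87 (adjusted p = 0.193, 0.213 and 0.324, edgeR). The groups overlapped in this sum, and its part in the linker and core values was not tested.

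Markers of other cells that a Ly6G gate could hold were summed per library. Of 8 eosinophil markers 5 were tested, and their list summed to 36.2 to 49.0 CPM in Ly6C-high libraries and 59.6 to 65.7 CPM in Ly6C-low libraries, led by Siglecf. Basophil and mast cell markers summed to 1333 to 1630 CPM in Ly6C-high libraries and 898 to 1309 CPM in Ly6C-low libraries. Almost all of this sum came from Hdc, whereas Mcpt8 had 0.671 ± 0.136 CPM in Ly6C-high libraries and 4.78 ± 3.28 CPM in Ly6C-low libraries. Of the 7 tested basophil and mast cell markers, 6 had fold changes below 0, with a median log2 fold change of -1.73. In the eosinophil list 4 of the 5 tested were below 0, beside 50.8% of all genes tested. At an unadjusted p under 0.05 (edgeR), each of these lists had 3 lower and 0 higher, beside 7.34% and 6.92% of all genes tested. Neutrophil markers, led by S100a9 and S100a8, summed to 114580 to 119826 CPM in Ly6C-high libraries and 95795 to 106828 CPM in Ly6C-low libraries.

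Monocyte and macrophage markers summed to 367 to 378 CPM in Ly6C-high libraries and 371 to 452 CPM in Ly6C-low libraries, mostly from Csf1r. The single markers ran otherwise, since 2 of the 7 tested had fold changes below 0, the median log2 fold change was 0.79 and 4 were higher at an unadjusted p under 0.05, beside 6.92% of all genes tested. The sums overlapped for B cells (12.8 to 17.3 CPM in Ly6C-high, 12.8 to 17.9 CPM in Ly6C-low) and T and NK cells (40.6 to 63.9 CPM in Ly6C-high, 33.6 to 46.8 CPM in Ly6C-low). They also overlapped for erythroid cells (247 to 904 CPM in Ly6C-high, 586 to 886 CPM in Ly6C-low), with Car1 and Klf1 at 0, and for platelets (29.9 to 46.3 CPM in Ly6C-high, 27.9 to 43.2 CPM in Ly6C-low). Markers of 4T1 cells and epithelium summed to 7.63 to 15.9 CPM in Ly6C-high libraries and 9.12 to 20.7 CPM in Ly6C-low libraries, with Krt8, Krt18, Krt19, Cldn3 and Cldn4 at 0 in all 6. Of the 50 tested genes in the 9 marker lists 0 passed the edgeR threshold, 2 passed that of DESeq2 (0.964% of all genes tested) and 0 that of voom. At an unadjusted p under 0.05, 8 of the 50 were higher and 7 lower, beside 6.92% and 7.34% of all genes tested. The part of these cells in the histone values was not tested.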

How the data were processed

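RNA of 6 sorted neutrophil libraries was quantified by the submitters with kallisto, with GRCm39 named, per the submitters' processing notes. Its version, index and strand setting are not given in the sources that were used here. The deposited tables hold estimated counts and TPM per transcript, per the file headers. The libraries began from 100 ng of RNA, with 13 PCR cycles and single 75-base reads, per the labels' protocols. Of 117486 transcripts, 116354 (99.04%) matched GENCODE M21, and they held 99.747% to 99.767% of counts. All 110 histone transcripts had the same length in both annotations.

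Counts were summed per gene and rounded, then tested in edgeR 4.0.16 (R 4.3.3, filterByExpr, TMM, robust quasi-likelihood F test, group alone), with Benjamini-Hochberg adjustment over 11406 genes and a threshold of 0.05. CPM are TMM-scaled and intervals are 95%. DESeq2 1.42.0, limma 3.58.1 (voom), other scalings and filters, each library left out, and a replicate block were alternatives. The fit was tested on simulated data. Libraries of a group differed by 14.6 to 49.5 chi-square units per gene, so none was counted as a copy. Genes with few counts are limited by counting error, and standard errors also hold the spread between libraries.

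The histone genes, the pathway lists and the marker lists were chosen with earlier results of these data known. Genes named are H1f0, H1fx, H3f3a, H3f3b, Ly6c1, Ly6c2, the 14 histone genes of highest mean TPM and the 3 of smallest p in each direction. Also named are the 3 of smallest p in each pathway list and the 2 highest in each marker list. Hist1h1a, Hist1h1b, Hist1h1d, Hist1h1e, Hist1h1t, Hist1h2ap, Hist1h4n, Hist3h2a, H2afx and Hist1h2al are named after their values were seen. Of the list symbols, 1 (Ars2) was unmatched. Class sums and lists are described without a test. Pseudogenes with histone symbols were left out.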

Additional observations from a re-analysis of the deposited data

How the results depend on the processing

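The median log2 fold change of the histone genes was below 0 under every alternative run, and moved to -0.32 with library size alone, which also shifted the median of all genes to -0.11. Histone genes past the threshold numbered 0 in the main edgeR fit and 1 with DESeq2, beside 0.0351% and 0.964% of all genes tested. With library size alone 1 passed, beside 8 of all genes, and with no filter on low counts 4, beside 439. With a library left out 0 to 1 passed, beside 2 to 22 of all genes. All histone genes that passed were lower in Ly6C-high. The fit with no filter kept every gene with a summed count of at least 1, so its counts are not out of 34 and 11406. Without Ly6C-low replicate 3, Hist1h1c passed (adjusted p = 0.0235, edgeR), and over the libraries left out its log2 fold change ran from -0.73 to -0.56 (adjusted p 0.0235 to 0.501). All genes past the threshold numbered 4, and 8 with library size alone, 439 with no filter, 110 with DESeq2, 2 with length-scaled TPM and 2 to 22 when a library was left out (22 without Ly6C-low replicate 3; 2 without Ly6C-high replicate 2 or 3 or Ly6C-low replicate 2). With replicate number as a block 61 genes (0.535% of all genes tested) and 3 histone genes (8.82%) passed, Hist1h1c, Hist1h4i and Hist1h2ac. All 3 were lower in Ly6C-high, beside 0.245% of all genes tested. The labels do not say whether same-numbered libraries are paired. Their correlations were 0.24, -0.04 and 0.24, the middle pair below 0.1, and those of different-numbered libraries ran from -0.31 to 0.11. The block also called 3 eosinophil and 2 basophil markers, all lower in Ly6C-high, and in each of 2 other lists 1 gene as higher. The log2 ratio of class sums moved to -0.41 for core genes with library size alone, and for variant genes to -0.0804 with library size alone and -0.0726 on the TPM scale; by counts, variant, core and linker genes held 87.3%, 7.19% and 5.51%.

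Signs turned for 6 named genes. H1f0 was at 0.0036 without Ly6C-low replicate 3 and from -0.923 to 0.0036 over the libraries left out. H2afj was at -0.0800 with library size alone and from -0.0416 to 0.0955 with a library left out. H2afy was at -0.11 with library size alone, -0.00845 with no filter, -0.0747 with length-scaled TPM, -0.000556 with protein-coding genes alone and from -0.045 to 0.055 with a library left out. H2afz was at 0.00624 with the replicate block, 0.00576 with median-ratio size factors, 0.00577 with DESeq2 and 0.00698 with voom, and from -0.107 to 0.119 with a library left out. H3f3a was at -0.0337 with library size alone, and Hist2h2aa2 ran from -4.73 to 0.392 with a library left out. The cause was not tested. Levels near 1 TPM or below rest on few counts.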

Other observations

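Of 5 histone symbols that the annotation does not class as protein-coding, Hist1h2al alone had reads, with 57, 52 and 78 estimated counts in Ly6C-high libraries and 73, 82 and 93 in Ly6C-low libraries. It averaged 30.9 TPM and shared 247 of its 31-base words with Hist2h2aa1. The near-identical genes Hist1h2bq and Hist1h2br, also named after their values were seen, moved against each other between libraries. Hist1h2br ran from 0.262 to 3.23 TPM among Ly6C-high libraries and from 0.718 to 1.34 TPM among Ly6C-low libraries, while the sum of the pair was 4.65, 4.76 and 6.42 TPM in Ly6C-high libraries and 6.67, 5.77 and 5.21 TPM in Ly6C-low libraries.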
